A study of Mus musculus with 32 samples.

Results

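Gene expression was compared on 9 liver arrays from mice given palm oil and 7 from mice given water. All these livers were taken after a hyperinsulinemic-euglycemic clamp. In a clamp, insulin is infused at a fixed rate and blood glucose is held level with a variable glucose infusion. These 16 arrays were chosen by their titles from the 32 of the series. The other 16 are basal livers of the same 2 treatments, from mice that had no catheter and were killed under isoflurane. All mice were male, wild type, of the C57BL/6NTac strain and 14 weeks old. Both clamped groups had a jugular catheter placed under ketamine and xylazine some days earlier, fasted for 10 h, were gavaged, and were clamped 6 h later. The palm oil group received 2 g of palm oil per kg body mass, and the control group received water. Every clamped mouse had a labelled glucose infusion for 110 minutes, then insulin at 15 pmol per kg per minute, and a labelled deoxyglucose injection at minute 120, and was killed with ketamine and xylazine. The series is about acute fat intake and insulin resistance, and this comparison sets a single fat meal against water when both groups received the same insulin.

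Palm oil is rich in palmitate, a saturated fatty acid. In liver, fatty acids are bound, activated to acyl-CoA and either oxidised or stored as triglyceride, and they are ligands of PPARA, the nuclear receptor that drives oxidation and ketogenesis during fasting. Insulin acts through its receptor, AKT and the FOXO1 factor, lowers gluconeogenic transcripts such as G6pc and raises lipogenic ones through SREBP1C. Lipid overload of the liver has been linked to endoplasmic reticulum stress, to Toll-like receptor signalling and to weaker insulin action, and those pathways were therefore described as lists.

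The values are log2 signals after robust multi-array averaging (RMA), so a difference of 1 is a 2-fold difference in signal. Of 12 listed hepatocyte markers 11 were measured, with a median level of 10.03 (log2), against 1.82 for all 22180 genes. Array medians lay between 1.65 and 1.72. Markers of pancreatic acinar cells, of which 14 of 18 were measured, averaged above 6 (log2) on palm oil replicates 7 and 9 and control replicate 3. They averaged between 1.51 and 5.09 on the other 13 clamped arrays. Control replicates 6 and 7 stood apart from the rest. Their scores on the first principal component, which held 28.8% of the variance, were 40.16 and 22.22, while the other 14 arrays lay between -11.86 and 8.03. Their median correlation with the other control arrays was 0.908 and 0.934, and for the other 14 arrays with their own group it was 0.962 to 0.974. Control replicate 6 held the lowest or the highest value of the 16 arrays in 21.9% of genes and control replicate 7 in 16.7%, and each other array did so in 8.83% to 13.7%. Many results below are therefore also given without this pair. The basal arrays were uneven as well. Those numbered 44 or higher in their labels had interquartile ranges of 2.44 to 2.54 (log2), and the other basal arrays 2.72 to 2.96. They made up a larger share of the basal controls than of the basal palm oil arrays. Their part in the basal differences of single genes given below was not tested.

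**Figure D1:**
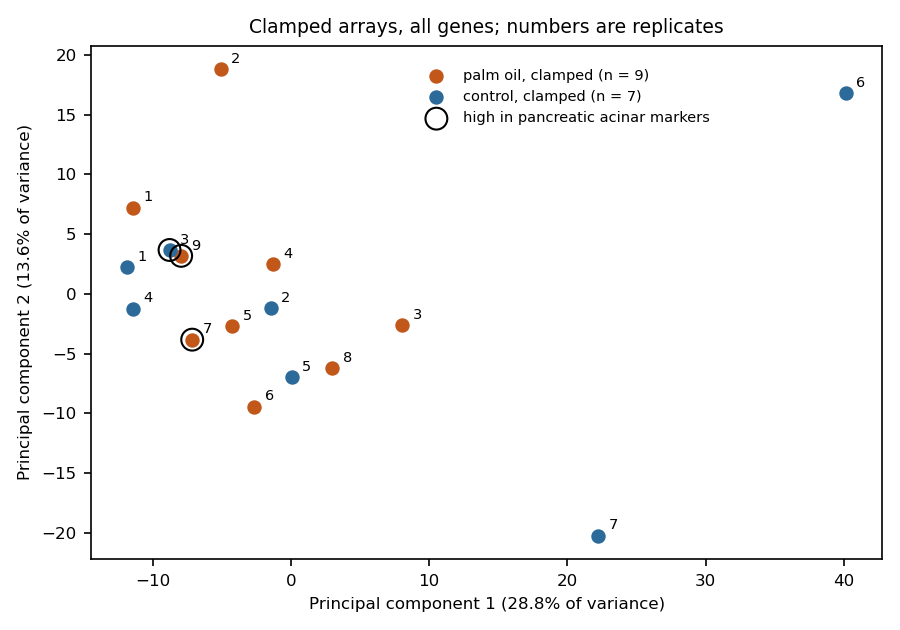
Scores of the 16 clamped arrays on the first and second principal components of all genes (axes in score units, share of variance in brackets). Points are arrays, coloured by group and numbered by replicate, and rings mark arrays whose acinar markers averaged above 6. Control replicates 6 and 7 lie at 40.16 and 22.22 on the first component, away from the other 14 arrays, in which the groups are mixed.

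No gene passed the threshold between palm oil and control in clamped liver. Limma's moderated test over 22180 genes, adjusted by the Benjamini-Hochberg method, called 0 genes at 0.05, which is 0% of those tested, and the smallest adjusted p was 0.99996. At an unadjusted p under 0.05 there were 781 genes, where 1109 would lie if p-values were spread evenly. Of these 406 were higher with palm oil, 1.83% of the genes tested, and 375 were lower, 1.69%. A fit of the 6600 genes with a mean of at least 4 alone had 178 higher and 73 lower at that level, with 3607 of them above 0. An exact two-sided rank sum test on the 16 arrays, whose smallest possible p is 0.000175, also called 0 genes and had 723 at an unadjusted p under 0.05. The difference was above 0 in 50.4% of genes, and in 50.1% without control replicates 6 and 7.

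The size of a difference that these arrays leave room for was small for most bright genes, and cannot be told for dim ones. The median absolute difference was 0.086 (log2) and the median standard error 0.13. For the 2780 genes with a mean of at least 6, the 95% interval lay inside a 2-fold difference either way in 98.8% and inside 1.5-fold in 91.9%. Over all genes these shares were 99% and 89.4%. Most of those genes are dim, with a median level of 1.82, and RMA compresses dim genes. Their narrow intervals therefore do not show that a 2-fold difference in RNA is excluded. A difference above 2-fold was estimated for 2 genes. These were Cyp7a1, higher with palm oil, and A2m, which encodes the protease inhibitor alpha-2-macroglobulin and was lower.

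A2m is shown here because of that size, after its values were seen. On the palm oil arrays A2m ran from 1.10 to 1.89 (log2, median 1.52), and on control replicates 1 to 5 from 1.35 to 1.74. Control replicate 6 was at 7.18 and control replicate 7 at 3.10. The difference of -1.05 ± 0.47 (SE) was -0.01 ± 0.14 without this pair.

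**Figure D2:**
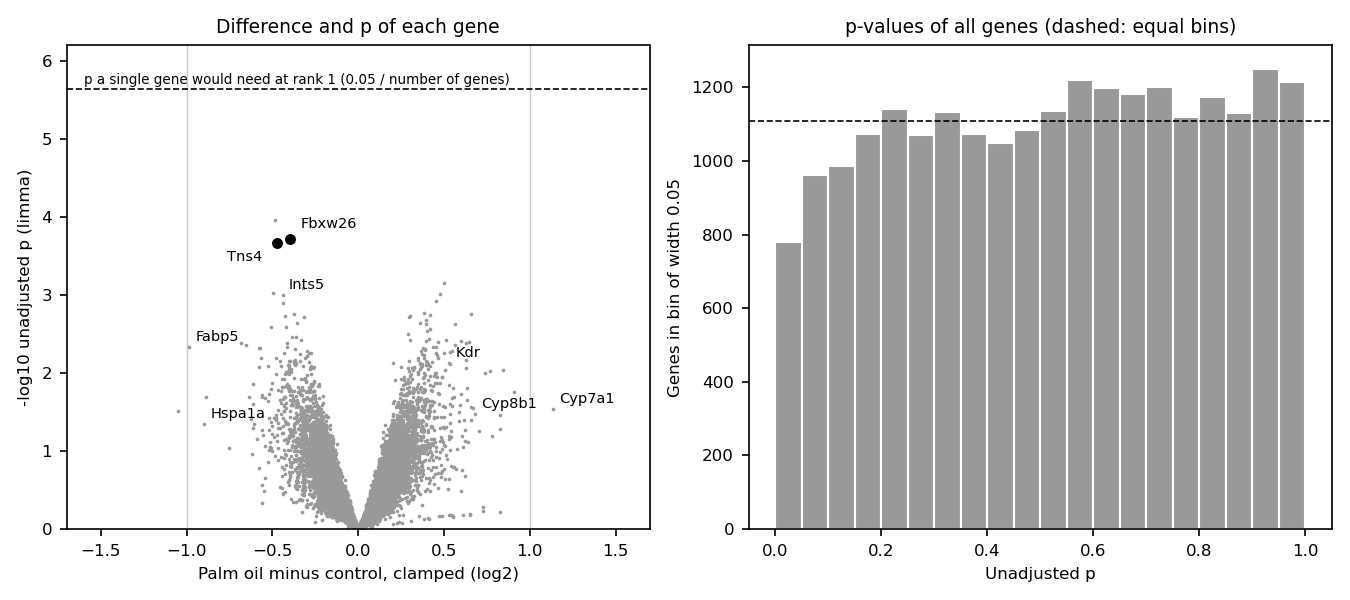
Left, palm oil minus control in clamped liver (log2, x axis) against -log10 of the unadjusted limma p (y axis) for each of 22180 genes, with grey lines at a 2-fold difference, a dashed line at the p that the top gene would need and large points for the 2 genes whose groups did not overlap. Right, number of genes per p-value bin, with a dashed line at equal bins: the lowest bin holds 781 genes and an even spread would give 1109.

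The 10 genes with the smallest p among those higher with palm oil, of a mean log2 value of at least 4, had differences of 0.29 to 0.64. For every gene named below the adjusted limma p of the clamped difference was 1. Sumo3, a small ubiquitin-like modifier, ran from 4.61 to 5.15 (median 4.82) with palm oil and from 4.30 to 4.80 (median 4.56) in controls. All 9 palm oil arrays lay above the control median, and the difference of 0.30 ± 0.09 (SE) was 0.31 ± 0.10 without control replicates 6 and 7. Bcr, a GTPase-activating protein with a kinase domain, ran from 4.90 to 5.41 (median 5.25) with palm oil and from 4.39 to 5.25 (median 4.86) in controls, a difference of 0.39 ± 0.12 that stayed at 0.39 without the pair. Pias1, a SUMO ligase and STAT inhibitor, was 5.45 to 5.91 (median 5.66) against 5.13 to 5.54 (median 5.37). Its difference was 0.29 ± 0.09, and 0.24 without the pair. For these 3 genes the ranges of the groups overlapped, and the difference moved little when the pair was left out.

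In the other 7, the difference was smaller without the pair. P2ry1, an ADP receptor, was 0.64 ± 0.21 higher and 0.33 ± 0.20 without the pair. Gstt3, a glutathione transferase, went from 0.60 ± 0.19 to 0.36, and Hykk, the kinase of hydroxylysine breakdown, from 0.46 ± 0.15 to 0.22. Fastkd1, which acts on mitochondrial RNA, went from 0.40 to 0.25, and Slc25a42, the mitochondrial coenzyme A carrier, from 0.39 to 0.23. Elmod3 went from 0.47 to 0.33 and Nicn1 from 0.41 to 0.33. Control replicate 6 or 7 was the lowest of the 16 arrays for all of these 10 genes but Sumo3. The same held in 52.5% of the 406 genes higher at an unadjusted p under 0.05, and in 19.5% of all genes. Those 406 were selected for low control values, so much of that gap was set by the selection. Among them replicates 6 and 7 were lowest in 26.4% and 26.1%, and each other control in 3.94% to 12.6%.

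The 10 with the smallest p among those lower with palm oil differed by 0.30 to 0.99 (log2). Ints5, a subunit of the Integrator complex that processes small nuclear RNA, ran from 3.62 to 4.43 (median 3.94) with palm oil and from 3.94 to 4.88 (median 4.46) in controls. All 9 palm oil arrays lay below the control median, and the difference was -0.44 ± 0.12 (SE), or -0.32 ± 0.13 without the pair. Smcr8, a partner of C9orf72 in autophagy, was 5.66 to 6.07 (median 5.82) against 6.00 to 6.46 (median 6.21). Its difference of -0.36 ± 0.12 was -0.41 ± 0.13 without the pair, and only the ends of the groups overlapped. Eva1a, another autophagy gene, was lower by -0.31 ± 0.11, and by -0.33 ± 0.12 without the pair.

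Fabp5, the epidermal fatty acid binding protein, had the widest difference of these genes. It ran from 5.66 to 6.80 (median 6.198) with palm oil and from 5.66 to 9.495 (median 6.84) in controls. The low ends of the groups coincided and the high values were all in controls, with replicate 6 highest. The difference was -0.99 ± 0.33 (SE), and -0.53 ± 0.28 without the pair. Ddx56, a nucleolar RNA helicase, went from -0.39 ± 0.12 to -0.25 and Nop2, an rRNA methyltransferase, from -0.30 ± 0.10 to -0.20. Hspa13, an HSP70 family member of the endoplasmic reticulum, went from -0.58 ± 0.21 to -0.22, Stk19 from -0.40 to -0.21 and the transporter Slc38a10 from -0.39 to -0.30. Control replicate 6 or 7 was the highest of the 16 arrays in 44.3% of the 375 genes lower at an unadjusted p under 0.05, and in 19.1% of all genes. Those 375 were selected for high control values, so much of that gap too was set by the selection. Among them replicates 6 and 7 were highest in 23.2% and 21.1%, and each other control in 8.27% to 14.1%.

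Leaving the pair out replaced many of the genes at an unadjusted p under 0.05. Without it 762 genes were there, 351 higher (1.58%) and 411 lower (1.85%), of which 323 were shared and all 323 kept their direction. They are 41.4% of the 781 and 42.4% of the 762. The smallest adjusted p without the pair was 0.99992, and 0 genes passed.

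Only Fbxw26 and Tns4 had groups that did not overlap, which is 0.00902% of the genes tested. Fbxw26, an F-box gene, ran from 0.64 to 0.99 (median 0.85) with palm oil and from 1.03 to 1.88 (median 1.15) in controls. Tns4, a focal adhesion protein, ran from 1.08 to 1.58 (median 1.36) with palm oil and from 1.65 to 2.07 (median 1.79) in controls. The differences were -0.40 ± 0.10 and -0.47 ± 0.11 (SE). Both genes are dim, with means of 1.02 and 1.57, below the median of all genes, where RMA values lie close to background.

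Bile acid synthesis, which turns cholesterol into bile acids in the hepatocyte, held the largest difference. Cyp7a1, its rate-limiting enzyme, ran from 5.68 to 8.57 (median 6.93) with palm oil and from 2.35 to 7.81 (median 6.07) in controls. The lowest control was replicate 6, and controls 1 and 3 were higher than 7 of the 9 palm oil arrays. Its difference was 1.14 ± 0.50 (SE), a fold with a 95% interval of 1.09 to 4.44, and it was 0.47 ± 0.43 without the pair. The pooled SD of Cyp7a1 within the clamped groups was 1.43, and the SE also draws on the basal arrays. The interval may therefore be too narrow for the clamped arrays. Cyp8b1, the 12-alpha-hydroxylase, went from 0.68 ± 0.31 to 0.07 ± 0.20. Amacr, the racemase of side-chain shortening, went from 0.35 ± 0.15 to 0.10 ± 0.13. Of 25 measured members 23 had a difference above 0, against 50.4% of all genes, with a median of 0.12. At an unadjusted p under 0.05 were 3 members, all higher, against 1.83% of all genes, and 0 passed the threshold. Without the pair 13 of 25 were above 0, with a median of 0.0032 and 0 members at an unadjusted p under 0.05.

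**Figure D3:**
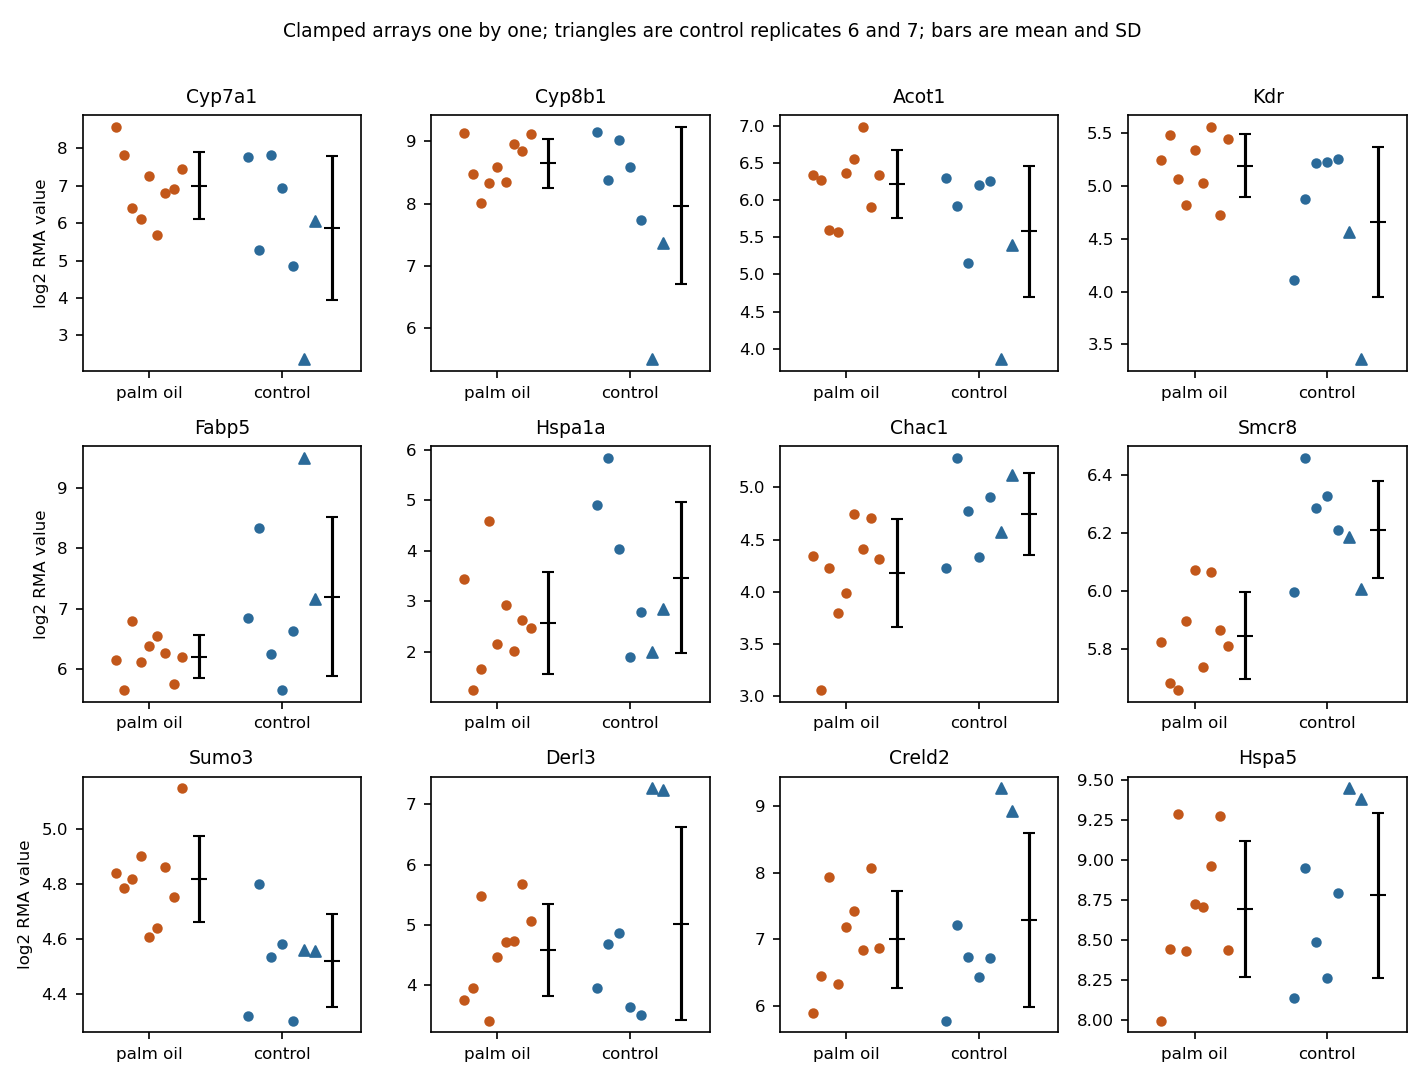
Log2 RMA values (y axis) of 12 genes on each clamped array, palm oil at left and control at right, with the mean and SD as bars. Triangles are control replicates 6 and 7, which are the lowest controls or near them for Cyp8b1 and Kdr and lie above all other arrays for Derl3, Creld2 and Hspa5, whereas Smcr8, Chac1 and Sumo3 differ in the other controls as well.

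Fatty acid oxidation was described by 28 PPARA targets and 27 beta-oxidation genes. Acot1, a PPARA-driven thioesterase that releases fatty acids from acyl-CoA, ran from 5.58 to 6.99 (median 6.34) with palm oil and from 3.86 to 6.29 (median 5.92) in controls. The difference of 0.63 ± 0.25 (SE) was 0.25 ± 0.21 without the pair. Angptl4, a secreted inhibitor of lipoprotein lipase, went from 0.29 ± 0.14 to 0.11. Cpt1a, the gate of mitochondrial fatty acid entry, went from 0.18 ± 0.10 to 0.0045. Fgf21, a fasting hormone of the liver, was 0.37 ± 0.25 and 0.47 ± 0.28, and Pdk4, which blocks pyruvate oxidation, was 0.12 ± 0.24 and 0.02. The lists had medians of 0.11 and 0.11 with 21 and 24 members above 0, and 0.0033 and 0.0020 with 15 and 14 above 0 without the pair.

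Lipid droplet and uptake genes followed. G0s2, the inhibitor of the lipase ATGL, ran from 4.72 to 5.75 (median 5.33) with palm oil and from 4.46 to 5.93 (median 4.70) in controls. All 9 palm oil arrays lay above the control median, and the highest value of all was control replicate 4. Its difference was 0.42 ± 0.18 (SE), 0.30 ± 0.20 without the pair and 0.46 ± 0.18 in basal mice. Fitm2, a lipid droplet biogenesis protein, went from 0.29 ± 0.14 to 0.17, and the carboxylesterase Ces1f from 0.27 ± 0.19 to -0.08. Plin2, a droplet coat protein, was 0.19 ± 0.18 and 0.15, and the fatty acid translocase Cd36 0.33 ± 0.21 and 0.22. Of 22 droplet genes 15 were above 0, and 11 without the pair.

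Lipogenic genes lay near 0. Srebf1, which encodes the lipogenic factor SREBP1, differed by 0.04 ± 0.15, Fasn, fatty acid synthase, by -0.03 ± 0.19 and Scd1, the desaturase, by -0.0023 ± 0.15, none of them larger than its standard error. Without the pair these differences were 0.01, 0.22 and -0.08. The median of 21 lipogenesis genes was 0.05, and 0.0065 without the pair. Cholesterol synthesis genes had a median of -0.14 with 3 of 20 above 0, and 0.05 with 13 of 20 above 0 without the pair. On control replicate 6 the list's median stood 0.98 above its mean over the 16 arrays and on control replicate 7 0.13 below it. Palm oil replicates 2 and 4 and control replicate 5 were the low ones, at -0.70, -0.59 and -0.46.

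Glucose output and insulin signalling showed no difference beyond their spread. G6pc, the last enzyme of glucose release, ran from 4.13 to 8.45 (median 5.75) with palm oil and from 3.85 to 8.54 (median 5.30) in controls. Each group covered more than 4 log2 units, and the difference was 0.52 ± 0.50 (SE), or 0.17 ± 0.54 without the pair. Pck1, which encodes the gluconeogenic PEPCK, was far tighter, at 10.82 to 11.24 (median 11.16) and 10.75 to 11.33 (median 11.15), with a difference of 0.04 ± 0.10. Its 95% interval covers 0.90 to 1.18 fold. Ppargc1a, a coactivator of gluconeogenesis, differed by 0.16 ± 0.26. Insr, the insulin receptor, differed by 0.05 ± 0.09 (0.09 ± 0.10 without the pair), and Irs2, its FOXO1-dependent substrate, by 0.37 ± 0.29 (0.11 without the pair). Igfbp1, an insulin-suppressed binding protein, differed by 0.06 ± 0.34, with a 95% interval of 0.64 to 1.68 fold. In the 27 insulin signalling genes 11 were above 0, in the 25 glucose output genes 16, and 6 of those 25 without the pair.

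FOXO1 targets, which insulin normally lowers, held 2 members higher and 0 lower at an unadjusted p under 0.05 out of 18, and 0 higher and 2 lower without the pair. Among all genes 1.83% were higher and 1.69% lower at that level, and 1.58% and 1.85% without the pair. Txnip, an inhibitor of glucose uptake, ran from 5.88 to 7.13 (median 6.42) with palm oil and from 5.56 to 6.79 (median 6.01) in controls. Its difference was 0.45 ± 0.16 (SE), and 0.27 ± 0.17 without the pair. Sesn3, a stress-induced regulator of mTORC1, went from 0.35 ± 0.15 to 0.10. Bcl6, a transcriptional repressor, was lower by -0.52 ± 0.30, and by -0.33 without the pair. The median of the list was 0.05, and -0.02 without the pair.

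The unfolded protein response turned direction with the pair. It is the set of chaperones and degradation factors that cells raise when proteins misfold in the endoplasmic reticulum. Of 25 measured members 22 were below 0 and 3 above, with a median of -0.10. Without control replicates 6 and 7, 21 of 25 were above 0, with a median of 0.17. In neither case did a member pass the threshold. The list's median stood 0.65 and 0.66 above the mean of the 16 arrays on that pair, and between -0.42 and 0.41 on the other 14. In 19 of the 25 genes both replicates lay above all other 14 arrays.

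Many of these promoters carry the endoplasmic reticulum stress element, the site through which ATF6 and XBP1 act. It was searched as CCAAT, 9 bases of any kind and CCACG, on both strands, in the 250 bases before each RefSeq start (GRCm38.p6). It was found in 9 of the 22 measured members with a window, 40.9%, and in 35 of 27025 genes, 0.130%. A match is a description of the letters and not evidence of a bound factor. The stretches below are from the members whose values follow, with the element in capitals, on the strand of the gene. Where the element lies on the opposite strand, its reverse complement is what is read.
Derl3, chr10:75893227-75893275 (+): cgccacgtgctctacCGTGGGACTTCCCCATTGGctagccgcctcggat
Creld2, chr15:88819505-88819553 (+): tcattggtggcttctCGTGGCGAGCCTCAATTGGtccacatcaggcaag
Syvn1, chr19:6046517-6046565 (+): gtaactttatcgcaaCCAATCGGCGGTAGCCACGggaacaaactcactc
Pdia6, chr12:17266476-17266524 (+): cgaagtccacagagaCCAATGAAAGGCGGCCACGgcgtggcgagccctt
Hspa5, chr2:34772010-34772058 (+): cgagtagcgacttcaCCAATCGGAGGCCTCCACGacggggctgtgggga
In Derl3 and Creld2 the element is on the opposite strand, and it begins 156 and 126 bases before the start. In Syvn1, Pdia6 and Hspa5 it is on the same strand, 44, 98 and 65 bases before it. These 5 members were chosen after their values were seen.

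Derl3, which helps pull misfolded proteins out for degradation, ran from 3.40 to 5.67 (median 4.72) with palm oil. It ran from 3.49 to 4.86 on control replicates 1 to 5 and stood at 7.27 and 7.23 on replicates 6 and 7. Creld2, a secreted stress protein, ran from 5.90 to 8.06 (median 6.87) with palm oil and from 5.77 to 7.21 on the 5 other controls. It stood at 9.26 and 8.93 on replicates 6 and 7. Syvn1, the ubiquitin ligase of this degradation pathway, was at 9.51 and 9.41 on the pair and at 6.78 to 8.52 on palm oil arrays. Hspa5, the chaperone BiP, was at 9.45 and 9.38 on the pair and at 7.995 to 9.29 on palm oil arrays, and Pdia6, a disulfide isomerase, at 8.94 and 8.40 against 7.09 to 8.16.

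The difference of Derl3 went from -0.44 ± 0.45 to 0.46 ± 0.36, of Creld2 from -0.30 ± 0.37 to 0.42 ± 0.30, and of Hspa5 from -0.08 ± 0.17 to 0.17 ± 0.17. Palm oil replicate 3 had the highest list median after the pair, at 0.41, and palm oil replicate 1 the lowest, at -0.42, so the palm oil group alone covered most of the range.

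**Figure D4:**
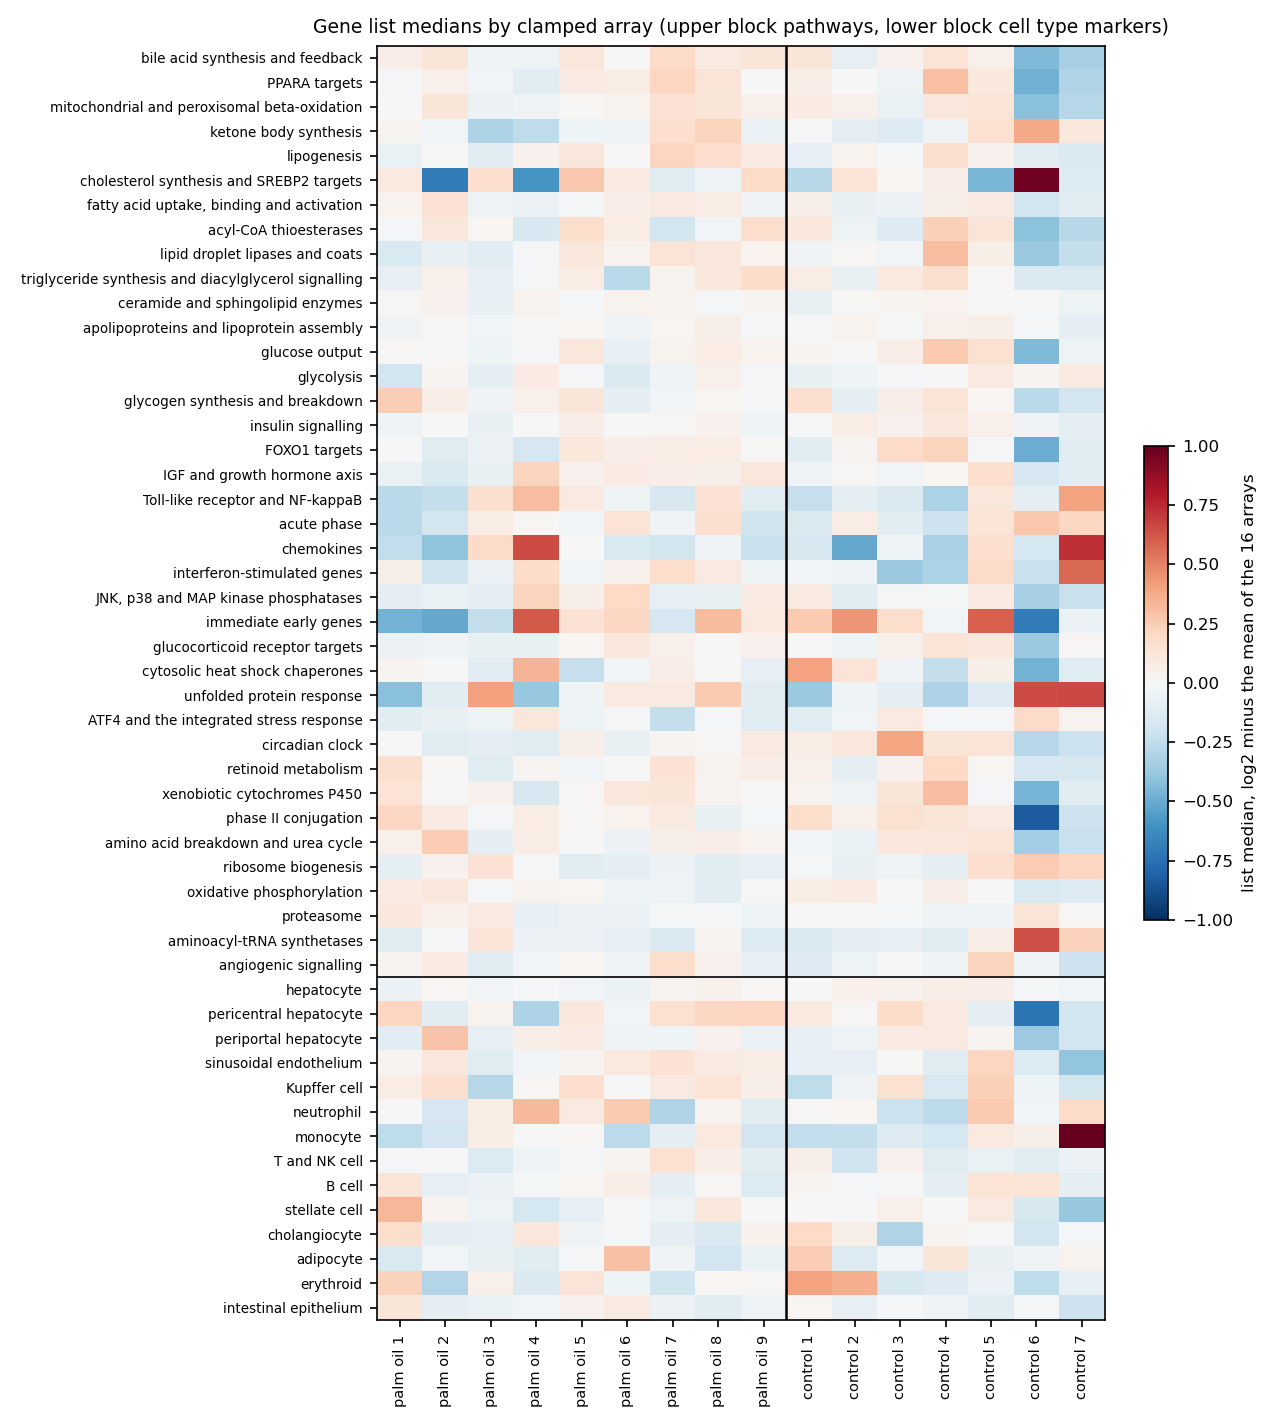
Median of each gene list on each clamped array, as log2 minus the mean of the 16 arrays (colours stop at -1 and 1), with palm oil arrays left of the line and controls right. The pancreatic acinar list, whose range is wider, is left out. Control replicate 6 is low in bile acid synthesis, PPARA targets, beta-oxidation and phase II conjugation and high in cholesterol synthesis, ketone body synthesis and the unfolded protein response, and control replicate 7 is high in chemokines, interferon-stimulated genes and monocyte markers.

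Targets of ATF4, the factor of the integrated stress response, had a median of -0.12 with 15 of 22 below 0. Chac1, a glutathione-degrading target, ran from 3.06 to 4.74 (median 4.32) with palm oil and from 4.23 to 5.28 (median 4.77) in controls. All 9 palm oil arrays lay below the control median. The difference was -0.57 ± 0.20 (SE), and -0.53 ± 0.22 without the pair. The amino acid transporter Slc7a5 was lower by -0.31 ± 0.16 and by -0.20 without the pair, and the dim hormone gene Stc2 by -0.28 ± 0.13 and -0.41 ± 0.13. The list's median without the pair was -0.05, with 9 of 22 above 0.

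Of 17 measured cytosolic heat shock genes 2 were at an unadjusted p under 0.05, both lower, where 1.69% of all genes were lower at that level. Hspa1a, the inducible HSP70, ran from 1.24 to 4.59 (median 2.47) with palm oil and from 1.89 to 5.84 (median 2.84) in controls. The difference was -0.90 ± 0.43 (SE), and -1.32 ± 0.46 without the pair. Bag3, a co-chaperone of HSP70, was lower by -0.40 ± 0.16 and by -0.35 ± 0.18 without the pair. Hspa4l, an HSP110 member, was 0.31 ± 0.16 higher, 0.20 ± 0.17 without the pair, and 0.45 ± 0.16 higher in basal mice. The median of the 17 members was -0.00070, and -0.10 without the pair, with 3 of 17 above 0.

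Immediate early genes, which respond to stimuli within minutes, moved further from 0 without the pair. Their median was -0.09 with 13 of 20 below 0, and -0.36 with 17 of 20 below 0 without it. Fos, an AP-1 subunit, ran from 3.04 to 5.34 (median 3.98) with palm oil and from 4.57 to 5.64 (median 4.95) on control replicates 1 to 5. It was lowest of all on replicate 6, at 2.15, and on replicate 7, at 2.72. Its difference was -0.33 ± 0.35 (SE), and -1.07 ± 0.25 without the pair, and it did not pass the threshold. Egr1, a zinc finger factor, differed by 0.07 ± 0.39, and by -0.64 ± 0.33 without the pair. Jun differed by -0.42 ± 0.29 and by -0.72 ± 0.29. Palm oil replicate 4 had a list median of 0.62 and palm oil replicates 1 and 2 -0.48 and -0.51, so these genes varied widely within the group. Fos, Egr1 and Jun were chosen after their values were seen.

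Clock genes had a median of -0.07 with 5 of 17 above 0, and -0.19 with 2 of 17 above 0 without the pair. Per1, which also responds to glucocorticoids, ran from 6.01 to 6.68 (median 6.40) with palm oil and from 6.26 to 6.87 (median 6.56) in controls, a difference of -0.19 ± 0.18 (SE). Cry2, a repressor of the clock, differed by -0.26 ± 0.14 and by -0.38 ± 0.15 without the pair, and was named after its values were seen. Control replicate 3 had the highest list median, 0.39, and control replicates 6 and 7 the lowest, -0.29 and -0.21.

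No inflammatory gene passed the threshold. Of 38 Toll-like receptor and NF-kappaB genes 19 were above 0, and 30 without the pair, with medians of 0.03 and 0.08. Tlr4, which senses lipopolysaccharide and has been linked to saturated fat, ran from 1.68 to 2.58 (median 2.13) with palm oil and from 1.81 to 2.30 (median 1.93) in controls. It differed by 0.15 ± 0.11 (SE), and by 0.10 ± 0.12 without the pair. Tlr3, a sensor of double-stranded RNA, was the list's 1 member at an unadjusted p under 0.05, with and without the pair, and is named after its values were seen. It ran from 3.36 to 4.42 (median 3.84) with palm oil and from 3.06 to 3.70 (median 3.65) in controls. Its difference was 0.30 ± 0.13, and 0.34 ± 0.15 without the pair, and the palm oil arrays reached higher while the groups overlapped. Tlr2 ran from 3.06 to 6.76 (median 4.15) and from 3.59 to 7.71 (median 4.19), with control replicate 7 highest, and differed by -0.44 ± 0.42 (-0.0034 without the pair). Il1b, a cytokine, differed by 0.46 ± 0.27, by 0.50 ± 0.29 without the pair, and by 0.70 ± 0.27 in basal mice. The chemokine Cxcl1 differed by -0.03 ± 0.33 (-0.16 without the pair) and Socs3, the feedback inhibitor of STAT3, by -0.41 ± 0.30. Interferon-stimulated genes had a median of 0.03 with 14 of 23 above 0 and 1 at an unadjusted p under 0.05. Without the pair their median was 0.12, with 17 of 23 above 0 and 3 at that level, all higher. Among all genes 1.83% were higher at that level, and 1.58% without the pair. Chemokines had a median of 0.0019 with 12 of 23 above 0, and 0.14 with 15 of 23 above 0 without the pair. Acute phase genes had a median of -0.07 with 5 of 25 above 0, and -0.0017 with 12 of 25 without the pair. Saa1 was not analysed here.

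Amino acid breakdown and phase II conjugation were mostly above 0 with all arrays. Of 28 amino acid and urea cycle genes 25 were above 0 with a median of 0.13, and 13 with a median of -0.0063 without the pair. Of 26 conjugation genes 23 were above 0 with a median of 0.11, and 6 with a median of -0.06 without it. On control replicate 6 the conjugation list stood 0.84 below the mean of the 16 arrays.

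Ribosome biogenesis genes were lower in 31 of 38 with a median of -0.10, and in 22 of 38 with a median of -0.03 without the pair. Nop56, a core protein of small nucleolar RNPs, differed by -0.28 ± 0.12 in clamped and by -0.28 ± 0.12 in basal mice, and by -0.17 without the pair. Rrp9, a U3 snoRNP protein, went from -0.33 ± 0.15 to -0.15. The 18 aminoacyl-tRNA synthetases had a median of -0.14, and 0.09 without the pair. Oxidative phosphorylation genes lay above 0 in 32 of 45 and in 8 of 45 without the pair, at medians of 0.02 and -0.03.

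**Figure D5:**
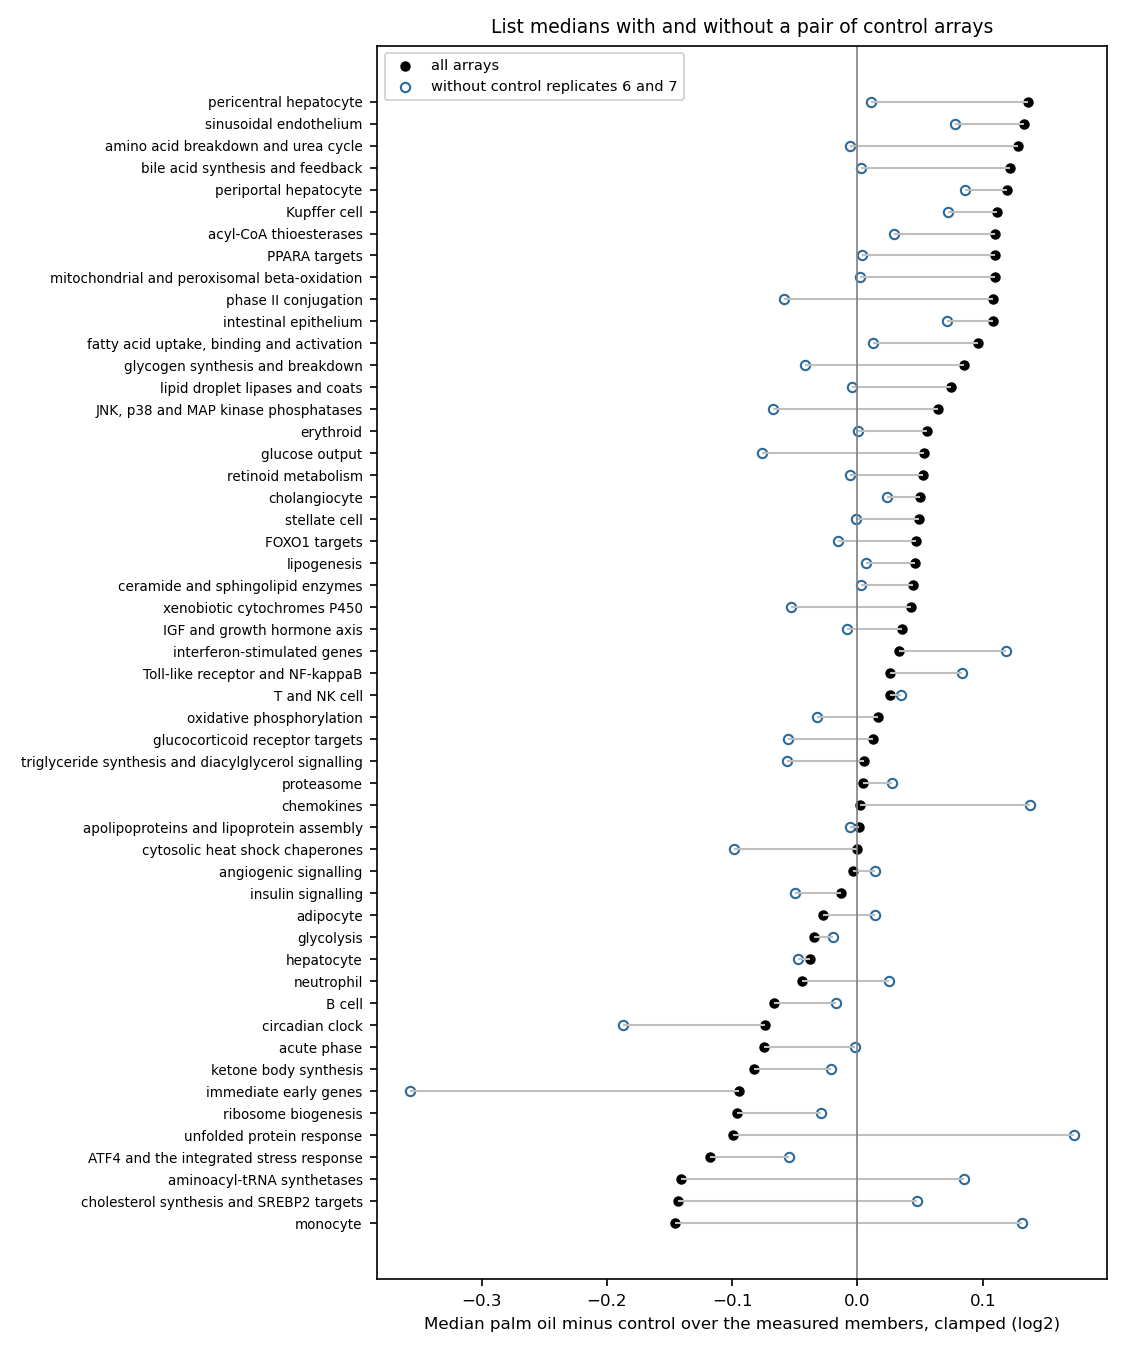
Median palm oil minus control difference (log2, x axis) of each gene list over its measured members, with all arrays (filled) and without control replicates 6 and 7 (open); the pancreatic acinar list is left out. Bile acid, PPARA, beta-oxidation and amino acid lists move to 0, and the unfolded protein response, cholesterol synthesis and aminoacyl-tRNA synthetase lists cross to the other side.

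Markers of liver cell types were read in the same way. In bulk tissue fewer cells of a type and less RNA per cell cannot be told apart. Sinusoidal endothelial markers were above 0 in 19 of 20, with a median of 0.13, and in 16 of 20 with a median of 0.08 without the pair. Kdr, the VEGF receptor 2, ran from 4.73 to 5.56 (median 5.25) with palm oil and from 3.36 to 5.25 (median 4.87) in controls. Control replicate 7 was lowest, and replicate 1 was also low. The difference was 0.53 ± 0.19 (SE), and 0.25 ± 0.16 without the pair. Oit3, a gene of these cells, went from 0.35 ± 0.13 to 0.24 and the DNase Dnase1l3 from 0.38 ± 0.15 to 0.14. Of 16 angiogenic signalling genes 7 were above 0, and 1 was higher and 1 lower at an unadjusted p under 0.05. Among all genes 1.83% were higher and 1.69% lower at that level. Angpt2, an antagonist ligand of the TEK receptor, was lower by -0.45 ± 0.17, and by -0.31 without the pair. It is dim, with a mean of 1.58, below the median of all genes. Dll4, a Notch ligand, was 0.34 ± 0.18 higher.

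Kupffer cell markers were above 0 in 15 of 17 with a median of 0.11, and in 11 of 17 with a median of 0.07 without the pair. Pericentral hepatocyte markers went from a median of 0.14 to 0.01. Periportal hepatocyte markers were also above 0 in 9 of 10 with a median of 0.12, and in 7 of 10 with a median of 0.09 without the pair. Of the pericentral markers, Lgr5, a Wnt target near the central vein, went from 0.42 ± 0.16 to 0.25, and the ammonium transporter Rhbg from 0.34 ± 0.20 to 0.06. Monocyte markers stood 1.02 above the mean of the 16 arrays on control replicate 7 and between -0.26 and 0.10 on the other 15. Their median difference was -0.15 with 4 of 9 above 0, and 0.13 with 6 of 9 above 0 without the pair. Hepatocyte markers differed by a median of -0.04, and lay between -0.06 and 0.07 on all 16 arrays. The part of cell makeup in the lists above was not tested.

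The genes that varied most within groups were Ctrb1, Cpa1, Klk1 and Ctrl, pancreatic digestive enzymes and kallikrein, with Moxd1 and Tff3. Ctrb1, chymotrypsinogen, ran from 1.36 to 10.41 (median 2.25) with palm oil and from 1.35 to 11.09 (median 3.04) in controls. Its pooled SD within groups was 3.65, and its difference of 0.83 ± 1.59 (SE) was within it. Cpa1 differed by 0.65 ± 1.42, Klk1 by 0.53 ± 1.203 and Ctrl by 0.20 ± 1.21. Without control replicates 6 and 7 these were 0.30, -0.21 and 0.00090. Over the 14 acinar markers the list median stood 4.53, 4.46 and 5.87 above the mean of the 16 arrays on palm oil replicates 7 and 9 and control replicate 3, and at 1.84 on palm oil replicate 4. Without the 3 arrays 0 genes passed. Moxd1, a monooxygenase-like protein, differed by -0.21 ± 0.70 and Tff3, a trefoil peptide, by 0.60 ± 0.60, or by -0.59 and 0.30 without the pair.

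No gene passed the threshold for a palm oil difference that depended on the clamp, which does not show that none did. Basal mice also had no catheter and were killed under another anaesthetic, so the clamp cannot be told apart from these. The interaction subtracts the basal difference from the clamped one. In limma it called 0 of 22180 genes, with a smallest adjusted p of 0.5256. At an unadjusted p under 0.05 there were 773 genes, where 1109 would lie if p-values were spread evenly. Without the basal arrays numbered 44 or higher 758 genes were at that level and 0 passed. Without the arrays high in acinar markers, of which 9 are basal, 1503 genes were at that level and 0 passed. Leaving out control replicates 6 and 7 as well gave 1554, again with 0 past the threshold. For Fabp5 palm oil was 0.63 ± 0.33 higher in basal mice, where the means were 6.31 and 5.67, and -0.99 ± 0.33 lower in clamped mice. The interaction was -1.62 ± 0.46 (SE), with an adjusted limma p of 0.9998, and -1.17 ± 0.37 without the pair. Eva1a was 0.21 ± 0.11 higher in basal and -0.31 ± 0.11 lower in clamped mice, an interaction of -0.52 ± 0.15. Tns4 had an interaction of -0.55 ± 0.16 and P2ry1 of 0.78 ± 0.29. Without the pair the interaction was -0.54 for Eva1a, -0.52 for Tns4 and 0.46 ± 0.27 for P2ry1. None of these passed the threshold.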

How the data were processed

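The values are log2 signals that the authors deposited, made by RMA; the software named in the submitters' processing notes is Affymetrix Expression Console 1.3.0.187, and other steps are not given in the sources used here. Of 41345 probe sets, 23521 had 1 gene symbol in the platform annotation, 1814 had several and 16010 were unnamed. The probe set with the highest mean was kept for each of 22180 genes. Groups came from sample titles. Limma 3.58.1 (R 4.3.3) was fitted to all 32 arrays with 1 mean per group, with Benjamini-Hochberg adjustment across the genes. The labels do not say that each array is a separate mouse, so p-values measure the spread between arrays, whose number limits the precision. Replicate numbers did not pair the arrays. Members, gene lists and tests were chosen with earlier results of these data known. Named genes were the 10 smallest p in each direction (mean log2 of at least 4), up to 3 members of lists with at least 2 members at an unadjusted p under 0.05, anchor genes, genes whose groups did not overlap and the 6 with the largest SD within groups. The fit was tested on simulated data. Promoters are from RefSeq, GRCm38.p6.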

Additional observations from a re-analysis of the deposited data

Results flagged for a closer look

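Among 73 named genes in 2 groups, 146 sets of values, 18 had 1 array far from the others of its group by Dixon's criterion, which chance does in about 1 in 20 sets of values; that share does not carry over to these genes, some of which were chosen for their spread or their difference and vary together. Of these 15 were in the control group and 3 in the palm oil group. Values are log2. Control replicate 7 was lowest for Nicn1 at 4.545 and Hykk at 5.669, and highest for Stk19 at 5.346 and Tlr2 at 7.705. Control replicate 6 was highest for Ddx56 at 5.715 and lowest for Ces1f at 7.005 and Igfbp1 at 8.57. Control replicate 3, which was high in acinar markers, was highest for Ctrb1 at 11.089, Cpa1 at 10.197, Klk1 at 9.987 and Ctrl at 9.633. Control replicate 1 was highest for Eva1a at 5.002 and Fbxw26 at 1.875, replicate 4 for G0s2 at 5.929 and replicate 5 for Tlr4 at 2.296. Palm oil replicate 5 was lowest for Ddx56 at 4.053, replicate 4 lowest for Pck1 at 10.817 and replicate 6 highest for Pdk4 at 6.25.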

How the results depend on the processing

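Limma called 0 genes for palm oil minus control under every alternative run, and 0 for the interaction under each that could give one; the fit of the 16 clamped arrays alone has no interaction. With genes of a mean log2 value of at least 4, 251 genes were at an unadjusted p under 0.05 and 0 had groups that did not overlap. Groups did not overlap in 13 genes once the 3 acinar-high arrays were dropped, in 18 without control replicates 6 and 7, in 118 without both sets, and 2 to 8 when 1 array at a time was left out; fewer arrays leave fewer ways to overlap. With the replicate number as a block, 917 genes were at an unadjusted p under 0.05 and 0 passed. Over the 7 pairs of arrays with the same number the correlation of deviations ran from -0.328 to 0.378, and 1 array correlated best with its own number, so the block is no paired analysis. Among 73 named genes 16 changed sign under some alternative, and none of these was past the threshold; the cause was not tested. Without control replicates 6 and 7, a choice made after seeing the data, the differences were Ces1f -0.0752, Fasn 0.2248, Igfbp1 -0.187, Klk1 -0.2102, Pck1 -0.0469 and Ppargc1a -0.1944. Without these and the acinar-high arrays they were Acot1 -0.0803, Angptl4 -1e-04, Ces1f -0.1034, Fasn 0.2554, Igfbp1 -0.1678, Klk1 -3e-04, Moxd1 0.0835, Pck1 -0.0719, Pdk4 -0.0561, Plin2 -0.0099, Ppargc1a -0.0427, Srebf1 -0.0091 and Tlr2 0.0862. Without the acinar-high arrays alone they were Cxcl1 0.0133 and Moxd1 0.4271. Array weights gave Fasn 0.0832, Igfbp1 -0.0658 and Ppargc1a -0.0033. The label number as a term gave Fasn 0.0323 and Scd1 0.0293, quantile normalization gave Scd1 0.0327, the acinar level as a term gave Ctrl -0.2817, and the replicate block gave Ctrl -0.3101 and Cxcl1 0.0777. Leaving out 1 array at a time gave ranges of Ces1f -0.0068 to 0.3786, Ctrl -0.2715 to 1.0849, Cxcl1 -0.1398 to 0.0557, Fasn -0.1182 to 0.0923, Igfbp1 -0.1482 to 0.1818, Moxd1 -0.6802 to 0.2543, Pck1 -0.0169 to 0.0814, Pdk4 -0.0507 to 0.1914, Ppargc1a -0.0418 to 0.3982, Scd1 -0.0804 to 0.0853, Srebf1 -0.0212 to 0.1029, Tlr2 -0.748 to 0.0436. Dim genes near background are compressed by RMA, which limits what they can show.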
